A study of Arabidopsis thaliana with 4 samples.

Results

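The jasmonate synthesis genes described here are 10 loci of Arabidopsis thaliana, taken by locus name from the gene-level tables, which list 33602 genes in all. In pathway order they are LOX2 (AT3G45140), LOX3 (AT1G17420), LOX4 (AT1G72520), LOX6 (AT1G67560), AOS (AT5G42650), AOC1 (AT3G25760), AOC2 (AT3G25770), AOC3 (AT3G25780), AOC4 (AT1G13280) and OPR3 (AT2G06050). All 10 had enough reads for a test. RNA was sequenced from whole seedlings, 12 days old per the labels, of a sORF1511 overexpressor (line 7 in the design text) and of Col-0, the WT. Each genotype had 2 libraries, called biological replicates by the labels, and each library came from a pool of 5 seedlings. The overexpressor is a single transgenic line, the labels do not give the promoter of the transgene, and the level of sORF1511 itself was not analysed here. The series looks for peptides from small open reading frames with a putative part in flowering time.

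Jasmonates are oxylipin hormones of wounding, defence, fertility and leaf ageing. In the plastid, 13-lipoxygenases oxygenate linolenic acid, allene oxide synthase (AOS) turns the hydroperoxide into an unstable allene oxide, and allene oxide cyclases (AOC) close the ring to give OPDA. In the peroxisome OPR3 reduces OPDA, and beta-oxidation then shortens the chain to jasmonic acid, which JAR1 joins to isoleucine to give the hormone that the receptor COI1 perceives. Several of these enzyme genes are themselves induced by jasmonate in Arabidopsis leaves.

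Total estimated reads were 18547136 and 25740234 in the overexpressor libraries and 13974460 and 24508631 in the WT libraries. The share of chloroplast ribosomal RNA was 1.08% and 0.956% in the overexpressor libraries, against 28.1% in WT replicate 1 and 1.29% in WT replicate 2; exact 95% binomial intervals, which cover counting error only, were 28.0% to 28.1% for WT replicate 1 and no wider for the others. The 10 green tissue markers, photosynthesis genes such as PSBO1 and GAPA, summed to 44050 and 40232 CPM in the overexpressor and to 33226 and 38489 CPM in WT. Of the 11 root markers, the beta-glucosidase gene PYK10 had 279 and 188 CPM in the overexpressor and 508 and 592 CPM in WT. The other 10 root markers together reached 24.1 and 13.2 CPM in the overexpressor and 29.3 and 54.9 CPM in WT, and the Casparian strip gene CASP5 had 0 reads in the overexpressor libraries and in WT replicate 1. CPM here are read counts relative to TMM-scaled library sizes, a scaling that allows for differences in RNA composition. In pools of whole seedlings, fewer cells of a type and less RNA per cell cannot be told apart. The part of tissue shares and of the ribosomal reads in the values below was not tested.

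All 10 genes had higher mean values in the overexpressor, with a median log2 fold change of 0.48, against a median of -0.01 over the 19474 genes tested; the values of LOX6 and AOC3 fell below 0 without WT replicate 1, and that of LOX6 also with TPM rescaled to nuclear genes (-0.09). In edgeR's quasi-likelihood fit, adjusted by Benjamini-Hochberg over all genes, 0 of the 10 reached an adjusted p below 0.05, where 27 genes, 0.139% of those tested, were called higher in the overexpressor and 2 were called lower. With scaling by library size only edgeR called 570 genes higher and 239 lower, and DESeq2 called 912 higher and 307 lower. Below, a gene is called where it passed in edgeR as first described, unless DESeq2 is named. At an unadjusted p below 0.05 in that test, 5 of the 10 were higher (LOX2, LOX3, LOX4, AOS and AOC2), against 11.9% of all genes tested. DESeq2 called the same 5 genes higher at an adjusted p below 0.05, against 4.41% of the 20678 genes to which it gave an adjusted p, whereas limma-voom called 0 of the 10 and 0 genes in all. In 7 of the 10 genes both overexpressor libraries lay above both WT libraries in CPM, which held for 28.7% of all genes tested. AOC1 was among the 7 by 21.2 CPM in overexpressor replicate 2 against 21.0 CPM in WT replicate 2. With TPM rescaled to nuclear genes the genotypes overlapped in AOC1, with 28.3 in overexpressor replicate 2 and 30.9 in WT replicate 2.

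**Figure D1:**
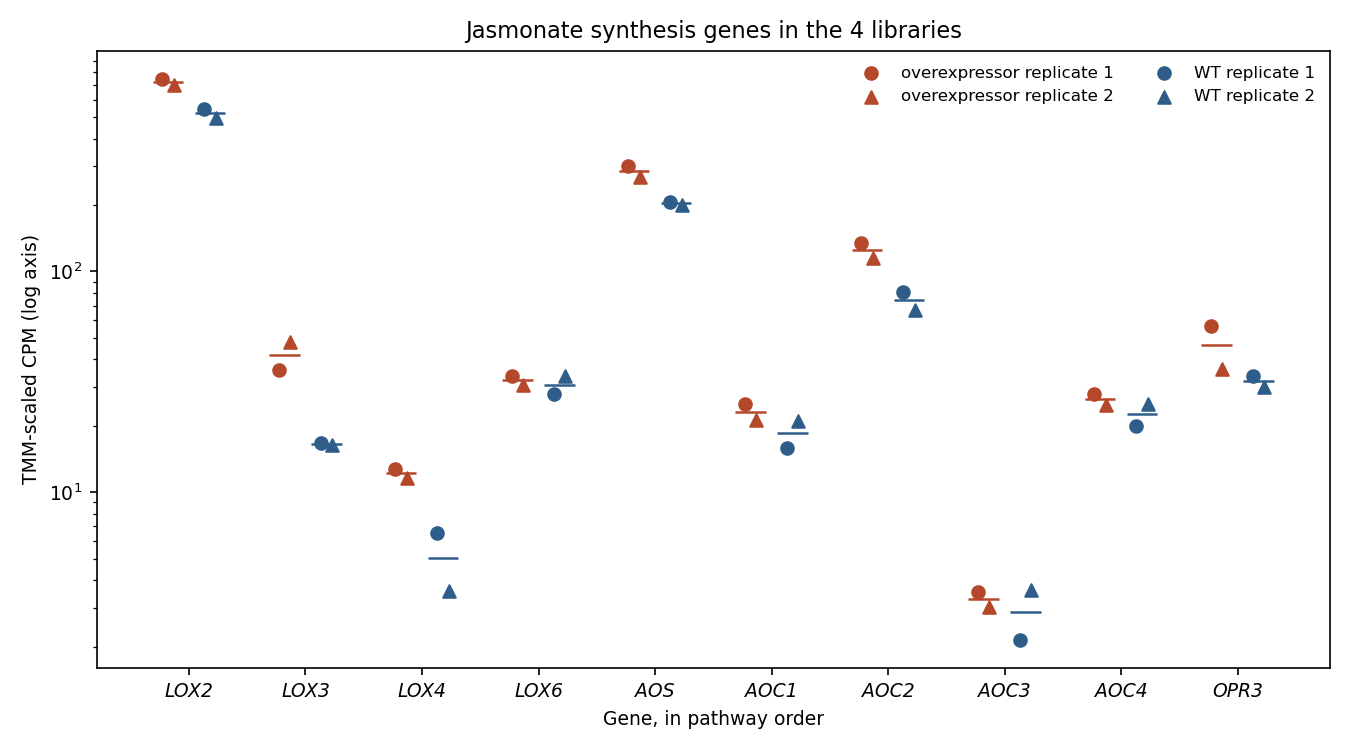
TMM-scaled CPM (log axis) of the 10 jasmonate synthesis genes in each library, with overexpressor libraries in red and WT libraries in blue; circles are replicate 1, triangles replicate 2, and short lines the mean of each genotype. The overexpressor points lie above the WT points for LOX2, LOX3, LOX4, AOS, AOC2 and, narrowly, OPR3 and AOC1. Those of LOX6, AOC3 and AOC4 overlap with WT.

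Among the 4 lipoxygenase genes, LOX3 and LOX4 had fitted folds of 2.54 and 2.48 over WT, and LOX2 had a fitted fold of 1.39. LOX6 had no difference detectable at this depth and spread. The genes were not tested against each other. LOX2 encodes the main leaf 13-lipoxygenase, which makes the bulk of wound-induced jasmonate near the wound. It had 746 and 699 CPM in the overexpressor, against 545 and 495 CPM in WT. Its genotypes did not overlap, and its log2 fold change was 0.48 ± 0.10 (SE, n = 2 libraries each; 95% interval 0.22 to 0.73; edgeR, adjusted p = 0.119).

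LOX3, which encodes a 13-lipoxygenase that acts with LOX4 in flower development and male fertility, had 35.6 and 48.1 CPM in the overexpressor, against 16.7 and 16.3 CPM in WT. Both overexpressor pools held more than both WT pools by a margin larger than the gap within either genotype. Its log2 fold change of 1.34 ± 0.17 (SE; 95% interval 0.92 to 1.77) was the highest of the 10 in this fit. LOX4 stood above LOX3 with limma-voom, by library size only, under the replicate block, without WT replicate 1 and without overexpressor replicate 2. By its p LOX3 stood 124th among all genes tested (edgeR, adjusted p = 0.0663). LOX3 passed an adjusted p of 0.05 in 6 of 16 alternative analyses, of which 1 left a single WT library and DESeq2 was another (adjusted p = 8.9e-08), and over the 16 its adjusted p ran up to 0.382.

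LOX4, the close relative of LOX3, had 12.7 and 11.6 CPM in the overexpressor, against 6.53 and 3.58 CPM in WT. The WT pools differed from each other by a log2 ratio of -0.87 (replicate 2 over replicate 1), the widest such gap of the 10 genes, and still lay below both overexpressor pools. The log2 fold change was 1.31 ± 0.30 (SE; 95% interval 0.55 to 2.08; edgeR, adjusted p = 0.127). Without WT replicate 1 it was 1.78 and without WT replicate 2 it was 0.90 (edgeR adjusted p of 0.0219 and 0.0397). Those fits hold 1 WT library, assumed to vary like the overexpressor pair, so the gap between the WT pools does not enter them. Without overexpressor replicate 1 or 2 the adjusted p of LOX4 in edgeR was 0.512 and 0.640.

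LOX6, whose enzyme serves early jasmonate formation after wounding and in roots, had 33.7 and 30.6 CPM in the overexpressor, against 27.9 and 33.6 CPM in WT. The genotypes overlapped. Its log2 fold change of 0.06 ± 0.13 (SE) had a 95% interval of -0.27 to 0.39. The fitted values of LOX2 (0.48) and LOX3 (1.34) lay above that interval. Differences between its limits, in either direction, remained possible for LOX6. Without WT replicate 1 the value was -0.05.

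AOS is encoded by a single gene, and its product is the branch point into jasmonate. AOS had 301 and 268 CPM in the overexpressor, against 206 and 201 CPM in WT. The genotypes did not overlap, and the WT pools lay within 0.04 of each other on the log2 scale. The log2 fold change was 0.48 ± 0.10 (SE; 95% interval 0.24 to 0.73), close to that of LOX2 (edgeR, adjusted p = 0.114).

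Among the cyclases, AOC2 had the largest difference and the clearest separation of the genotypes. It had 135 and 115 CPM in the overexpressor, against 80.9 and 67.1 CPM in WT. The log2 fold change was 0.76 ± 0.14 (SE; 95% interval 0.41 to 1.10; edgeR, adjusted p = 0.0976). AOC2 passed the threshold with DESeq2 (adjusted p = 0.00010) and under the replicate block (edgeR adjusted p = 0.0470). It also passed, at an edgeR adjusted p of 0.0498 each, in the fits that left a single WT library, where the spread comes from the overexpressor pair, and without overexpressor replicate 1 or 2 its adjusted p was 0.416 and 0.505.

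The other cyclase genes gave smaller differences that the test did not separate from 0. AOC1 had 25.2 and 21.2 CPM in the overexpressor, against 15.9 and 21.0 CPM in WT, so that overexpressor replicate 2 and WT replicate 2 nearly met, and its log2 fold change was 0.32 ± 0.18 (SE; 95% interval -0.13 to 0.77). Without WT replicate 1 that value was 0.15, and without WT replicate 2 it was 0.54. AOC4 had 27.8 and 24.9 CPM in the overexpressor, against 20.0 and 25.1 CPM in WT, with overlap and a log2 fold change of 0.22 ± 0.15 (SE; 95% interval -0.16 to 0.59), which was 0.081 without WT replicate 1 and 0.39 without WT replicate 2. AOC3, the gene of lowest mean CPM among the 10, had 3.54 and 3.03 CPM in the overexpressor, against 2.15 and 3.62 CPM in WT. Its level in WT replicate 1 rests on 24 reads (95% exact Poisson interval 15.4 to 35.7, counting error only), and its log2 fold change of 0.15 ± 0.32 (SE; 95% interval -0.67 to 0.97) became -0.13 without WT replicate 1. In AOC1, AOC3 and AOC4 alike WT replicate 2 was higher than WT replicate 1, by log2 ratios of 0.40, 0.75 and 0.33, whereas in AOC2 it was lower by 0.27 (log2 ratio -0.27).

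AOC1, AOC2 and AOC3 are neighbours in the gene reference, in that order, and the AOC genes encode closely related proteins, so reads could be divided between them. In overexpressor replicate 1 the table lists 484.878 reads for AOC1 and 68.122 for AOC3, which add up to 553 whole reads; these are the only entries of the 10 genes in the 4 tables that are not whole within 0.001. Summed over AOC1 to AOC4, which removes any division within the family, the level was 191 and 164 CPM in the overexpressor, against 119 and 117 CPM in WT. The sum did not overlap between genotypes and had a log2 fold change of 0.59 ± 0.10 (SE; 95% interval 0.32 to 0.86; edgeR, adjusted p = 0.0955). The WT pools, which differed in each cyclase gene, lay close together in the sum, since AOC2 was lower and the other cyclase genes were higher in WT replicate 2. Whether reads were divided between the genes was not tested.

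OPR3, the peroxisomal reductase on which male fertility depends in Arabidopsis, had 56.4 and 36.1 CPM in the overexpressor, against 33.6 and 29.9 CPM in WT. The overexpressor pools differed from each other more than in any other of the 10 genes (log2 ratio -0.64, replicate 2 over replicate 1). The log2 fold change was 0.54 ± 0.23 (SE; 95% interval -0.03 to 1.12; edgeR, adjusted p = 0.246). Without overexpressor replicate 1 the value was 0.20, and without overexpressor replicate 2 it was 0.84.

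**Figure D2:**
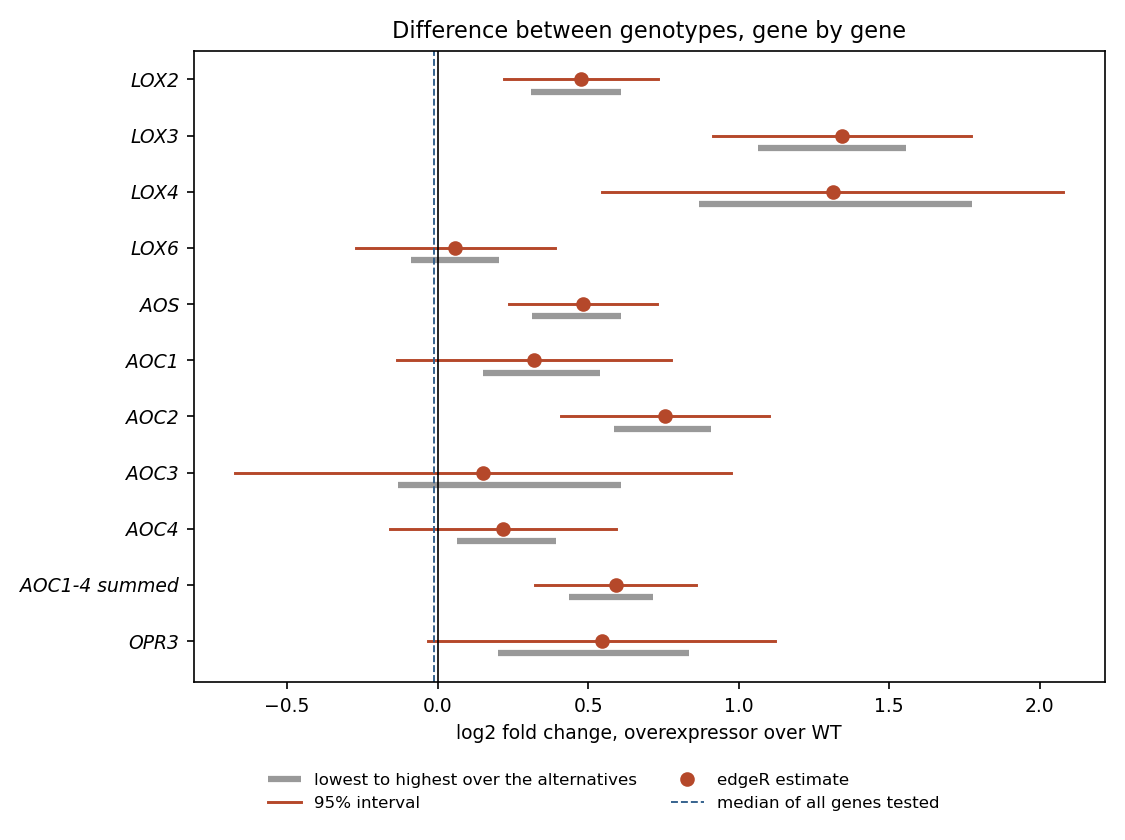
Log2 fold change of overexpressor over WT for each gene and for the 4 cyclase genes summed; red points and lines are edgeR's estimate and its 95% interval, and grey bars run from the lowest to the highest value over 16 alternative analyses. LOX3 and LOX4 lie farthest to the right (1.34 and 1.31), and the intervals of LOX6, AOC1, AOC3, AOC4 and OPR3 include 0.

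Levels can be compared between genes of a library in TPM, which divides reads by transcript length. LOX2 was the most abundant of the 10 in every library, followed by AOS, AOC2, OPR3, AOC1 and AOC4 in that order in all 4 libraries. LOX2 stood at 302 and 291 TPM in the overexpressor and at 183 and 226 TPM in WT. AOS stood at 199 and 182 TPM in the overexpressor and at 113 and 150 TPM in WT. AOC1 and AOC4, neighbours in this order, lay near each other within each library. AOC1 had 32.5 and 28.0 TPM against 27.4 and 25.3 TPM for AOC4 in the overexpressor. In WT AOC1 had 17.1 and 30.5 TPM against 16.4 and 27.9 TPM for AOC4. The difference between these genes was not tested. TPM of WT replicate 1 are lowered by its ribosomal reads, so levels are set side by side here within a library and not between genotypes.

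The order differed between genotypes at its lower end. LOX3 exceeded LOX6 in both overexpressor libraries, with 13.8 and 19.2 TPM for LOX3 and 13.2 and 12.3 TPM for LOX6. In both WT libraries it lay below LOX6, with 5.39 and 7.13 TPM for LOX3 and 9.08 and 14.8 TPM for LOX6. In overexpressor replicate 1 the LOX3 and LOX6 levels were nearly equal. LOX4 likewise lay above AOC3 in both overexpressor libraries (4.80 and 4.50 TPM for LOX4, 4.52 and 3.97 TPM for AOC3) and below it in both WT libraries (2.04 and 1.52 TPM for LOX4, 2.28 and 5.20 TPM for AOC3), by small margins in overexpressor replicate 1 and WT replicate 1.

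As shares of the lipoxygenase TPM in a library, which do not depend on the scaling between libraries, LOX2 made up 90.5% and 89.0% in the overexpressor and 91.7% and 90.6% in WT. LOX3 made up 4.14% and 5.86% in the overexpressor, against 2.70% and 2.86% in WT, and LOX6 3.95% and 3.77% in the overexpressor, against 4.54% and 5.95% in WT. AOC2 made up 73.4% and 73.1% of the cyclase TPM in the overexpressor, against 71.3% and 61.1% in WT. The WT pools differed from each other in this share by more than WT replicate 1 differed from the overexpressor. The difference in these shares was not tested.

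**Figure D3:**
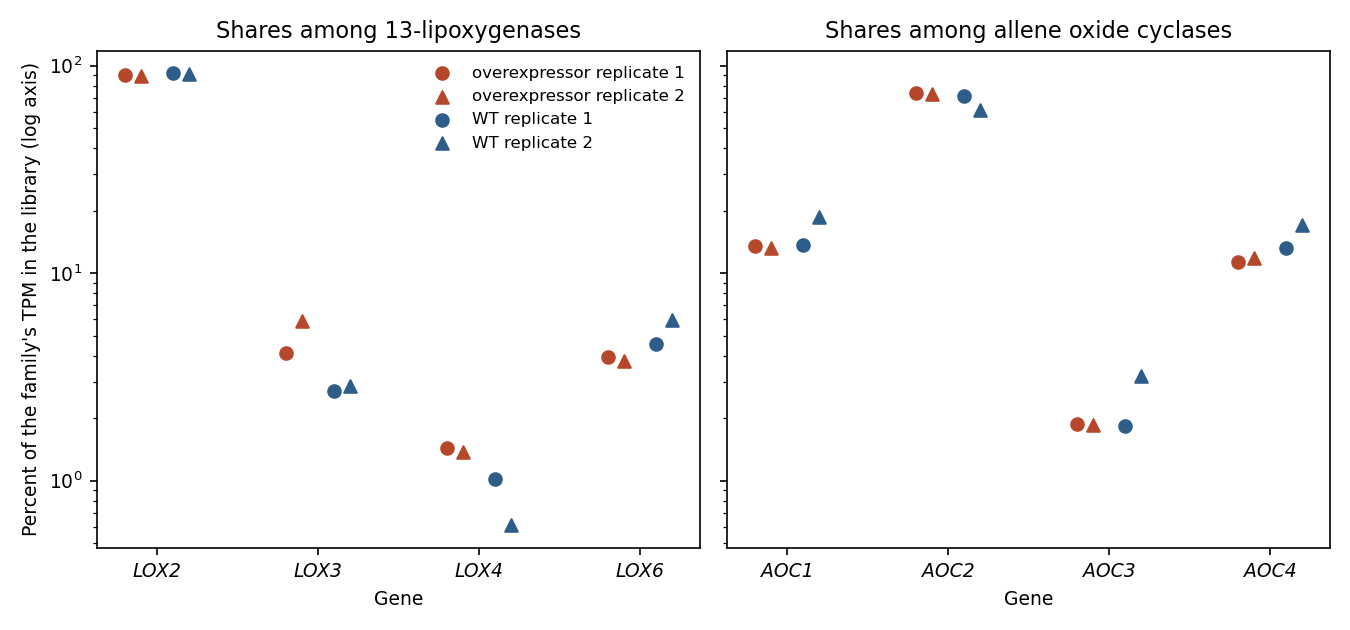
Percent of the family's TPM (log axis) that each gene took in each library, for the lipoxygenases (left) and the allene oxide cyclases (right), with overexpressor in red and WT in blue, circles for replicate 1 and triangles for replicate 2. LOX3 took 4.14% and 5.86% in the overexpressor and 2.70% and 2.86% in WT, and AOC2 was the largest cyclase share in every library.

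Outside the list, the genes most like its median profile over the 4 libraries, by root mean square distance of centred log2 CPM, were UGE3 (AT1G63180), a UDP-glucose epimerase, RBCS1B (AT5G38430), IAR3 (AT1G51760), an amidohydrolase that cleaves hormone conjugates, the splicing factor RS31a (AT2G46610) and AT5G57000, at distances of 0.031 to 0.042. Of the 19474 genes tested, 329 outside the list, each with a mean of at least 1 CPM, lay closer than 0.1 over the 4 libraries. How many genes lie as near to other profiles was not tested. RBCS1B, a Rubisco small subunit, had 5865 and 5261 CPM in the overexpressor and 4055 and 3979 CPM in WT. Of the 10 synthesis genes AOS lay nearest to the median profile, at 0.033, and LOX4 farthest, at 0.51. These genes themselves define that profile, so their distances do not compare with those of genes outside the list.

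The remaining steps of the pathway did not all show the same values as the 10 genes. Upstream, the desaturase genes that supply linolenic acid had no higher values: the median over 3 tested genes was -0.23, with FAD8 at -0.01 ± 0.09 and FAD3 at -0.31 ± 0.12 (log2 fold change ± SE), and 0 of 3 called by edgeR or DESeq2. The lipase DAD1, known from flowers, had 0 reads in every library, and the lipase DGL too few for a test. In side branches of oxylipin metabolism edgeR called 0 of 5 genes and DESeq2 called 1 higher (LOX1, a 9-lipoxygenase), against 4.41% of all genes. The log2 fold change was 0.80 ± 0.18 for the hydroperoxide lyase gene HPL1 and -0.47 ± 0.22 for the 9-lipoxygenase gene LOX5. After OPDA, all 9 genes of plastid exit, peroxisomal import and beta-oxidation had log2 fold changes above 0, with a median of 0.31. In this list edgeR called 0 of 9 and DESeq2 called 3 higher (the beta-oxidation genes ACX1, KAT2 and KAT5), against 4.41% of all genes. ACX1, an acyl-CoA oxidase of this chain shortening, had 116 and 122 CPM in the overexpressor, against 57.3 and 66.5 CPM in WT, a log2 fold change of 0.94 ± 0.11 (edgeR, adjusted p = 0.0628). The peroxisomal importer PXA1 stood at 0.07 ± 0.08.

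Enzymes that join, oxidise or cleave jasmonates had 10 tested genes with a median log2 fold change of 0.87, of which edgeR called 1 higher in the overexpressor, against 0.139% of all genes tested, and DESeq2 called 5 higher (CYP94B3, ILL6, JOX2, JOX3 and JOX4), against 4.41% of all genes. The gene called by both was JOX4 (AT2G38240), a jasmonate oxidase, with 11.6 and 13.5 CPM in the overexpressor, against 0 and 0.0362 CPM, no read and 1 read, in WT. JAR1, which makes the active conjugate, had a log2 fold change of -0.09 ± 0.13. In perception and signalling edgeR called 1 of 17 genes higher in the overexpressor, the repressor gene JAZ1 (2.20 ± 0.19, edgeR adjusted p = 0.0483), and the median was 0.34. DESeq2 called 5 of the 17 higher, which were JAZ1, JAZ5, JAZ6, JAZ9 and the transcription factor MYC2. JAZ8, at 0.468 and 2.08 CPM in the overexpressor against 0.179 and 0.0723 CPM in WT, had the highest fitted value there, but WT held 2 reads in each library, under the 3 reads taken as measured. The transcription factor MYC4 had the lowest, at -0.18 ± 0.15. These lists are described by their counts and medians, and no test set one list against another.

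**Figure D4:**
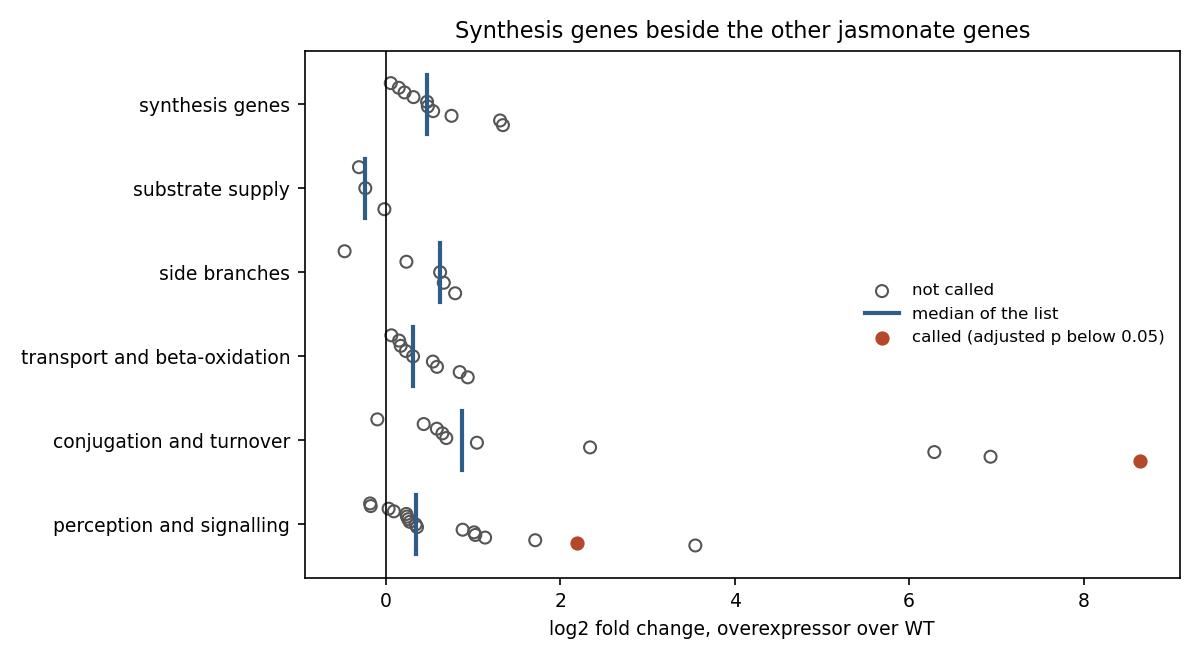
Log2 fold change of overexpressor over WT for each tested gene of the jasmonate pathway, one row per list, with filled red points for genes called by edgeR at an adjusted p below 0.05 and a blue line at each list's median. The synthesis genes run from 0.06 to 1.34 with none called by edgeR, the substrate genes lie below 0, and the filled points are JOX4, whose fitted value depends on the prior count since WT held 1 read, and JAZ1.

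Among the tissue markers edgeR called 0 of 10 green tissue genes and DESeq2 called 1 higher (PSBO1), against 4.41% of all genes. The median log2 fold change of the green tissue genes was 0.24, with PSBO1 at 0.45 ± 0.13 and GAPA at -0.14 ± 0.11. Of the 11 root markers 4 had enough reads for a test, all 4 with lower values in the overexpressor and a median of -1.38. Of these edgeR called 0 and DESeq2 called 2 lower (CASP1 and PYK10), against 1.48% of all genes that DESeq2 called lower. CASP1 had 0.520 and 0.912 CPM in the overexpressor, against 4.38 and 7.59 CPM in WT, and the nitrate transporter NRT2.1 had a log2 fold change of -0.82 ± 0.39.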

How the data were processed

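Polyadenylated RNA of the 4 seedling pools (200 ng per library) was sequenced with a stranded protocol, per the labels' protocols. For each library the authors deposited estimated counts and TPM by gene, per the file headers; TPM are relative to effective length and to all genes, organelle genes included. DESeq2 is named, with no version, in the submitters' processing notes. Quantifier, annotation and genome build: not given in the sources used here, so no coordinates or sequences are printed, and the TAIR10.1 gene table served for names and neighbours.

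The deposited expected counts were rounded and tested in edgeR 4.0.16 under R 4.3.3. Genes were kept by filterByExpr (count minimum 10, total minimum 15, by genotype), scaled by TMM, fitted with glmQLFit and tested with glmQLFTest, and p-values of the 19474 genes were adjusted by Benjamini-Hochberg. The SE is the coefficient over the square root of F, and 95% intervals use the test's degrees of freedom. Replicates of a genotype differed beyond sampling noise (chi-square per degree of freedom 8.80 in the overexpressor and 380.1 in WT). Both values are over all genes, chloroplast ribosomal RNA included. That RNA made up 28.1% of reads in WT replicate 1 and 1.29% in WT replicate 2. The values therefore do not compare the spread of the other genes between genotypes. The 3 reads taken as a floor correspond to 0.108 to 0.268 CPM. Alternatives were DESeq2 1.42.0, limma 3.58.1 (voom, and trend on log2 TPM with pseudocounts 1 and 0.1), RLE factors, library size only, organelle genes left out, an effective length offset, other filters, a replicate block, each library left out and, chosen after seeing the data, TPM over nuclear genes.

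The 10 genes and the lists were chosen with earlier results of these data known. Named beside them were, of each other list, the called genes and the highest and lowest fold change, and the 5 genes outside the 10, of at least 1 CPM, nearest to the median profile. CASP5, PYK10, DAD1, DGL and the genes that only DESeq2 called were added after seeing their values.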

Additional observations from a re-analysis of the deposited data

How the results depend on the processing

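Over 16 alternative analyses, 157 of 160 log2 fold changes of the 10 genes were above 0. The 3 below 0 were AOC3 without WT replicate 1 (-0.13), LOX6 without WT replicate 1 (-0.053) and LOX6 with limma-trend on log2(TPM + 1) over nuclear genes only (-0.089). Without single libraries LOX6 ran from -0.053 to 0.20 and AOC3 from -0.13 to 0.61. In the last analysis the median of all genes moved by -0.13, to -0.14, so that LOX6 lay 0.06 above it. Scaling by library size only moved the median of all genes by 0.12, and the median of the 10 genes became 0.61, or 0.51 relative to all genes. With TPM over nuclear genes it was 0.31, or 0.46 relative to all genes. With each library left out in turn it ran from 0.31 to 0.55, lowest without overexpressor replicate 1.

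The 0 of 10 called became 5 with DESeq2, 2 by library size only (LOX3 and LOX4), 1 with organelle genes left out and 1 with no low-count filter (LOX3 in both). The replicate block gave 2 (LOX3 and AOC2). Over all genes DESeq2 called 912 of 20678 higher, library size only 570 of 19474 and the replicate block 329 of 19474. With organelle genes left out 163 of 19486 were called higher, and with no low-count filter 305 of 23925. In the fits that leave out a library, the lone library of a genotype is assumed to vary like the pair of the other, so their calls rest on that pair's spread. Over those fits the log2 fold change of LOX3 ran from 1.11 to 1.56, that of LOX4 from 0.90 to 1.78 and that of AOC2 from 0.63 to 0.91. LOX6, AOC1, AOC3, AOC4 and OPR3 were called in none of the 16 alternatives. The summed cyclases passed with DESeq2 only (0.60, adjusted p = 0.00021); over the alternatives their adjusted p ran up to 0.506, and without single libraries the value ran from 0.49 to 0.70.

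Over all genes the 29 calls became 1219 with DESeq2, 0 with limma-voom, 809 by library size only, 184 with organelle genes left out, 274 and 194 with limma-trend on log2 TPM plus 1 and 0.1, 362 with no low-count filter, 75 with at least 1 CPM in 2 libraries, 372 with the replicate block, and 0 to 2203 without single libraries. Without WT replicate 1 the calls were 240 higher and 140 lower, and without WT replicate 2 they were 1189 higher and 1014 lower. RLE factors again gave 29 calls over all genes, the effective length offset gave 28 and TPM over nuclear genes gave 43. The causes of the differences in these counts were not tested. Same-numbered libraries deviated from their genotype's mean with a correlation of 0.058 across genes and share only a number, so the block describes no known pairing. With 2 libraries a genotype, p-values measure the spread between these pools only.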
